A study of Homo sapiens with 6 samples.

Results

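The GADD45 family comprises GADD45A, GADD45B and GADD45G, 3 of the 58735 genes measured in RKO cells, a human colorectal carcinoma line. The members were chosen by gene name with their FPKM in both groups in view, to set the member under p53 control against the member under stress and NF-κB control. Their values, fitted fold changes and calls are therefore a description of these libraries, given without p-values, and are no test of the family. Expression was measured as FPKM, the fragments on a gene per kilobase of its merged exons, scaled to the size of the library. The 3 Vector libraries came from cells that the labels call negative control. The 3 LOC_OE libraries came from cells with stable overexpression of the long non-coding RNA LOC101927668, which the study introduced by lentivirus under puromycin selection. Whether these cells were 1 clone or a pool is not given in the sources used here. Nothing in the labels says that the libraries came from separate cultures, so p-values measure the spread between these libraries, which may be technical, although the design text of the series calls them biological replicates.

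GADD45 proteins are small acidic proteins of the nucleus and cytoplasm that have no known enzymatic activity and act by binding others. They bind PCNA and the CDK1 and cyclin B1 kinase, and they bind and activate the kinase MAP3K4, which lies upstream of p38 and JNK. GADD45A is a classical p53 target that is induced by DNA damage, and it is also induced without p53 by factors such as ATF4. GADD45B responds to NF-κB, to TGF-β and to acute stress, and GADD45G to cytokines and differentiation signals.

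GADD45A (ENSG00000116717) lies on the plus strand of chromosome 1 from 67685061 to 67688338 on GRCh38, GADD45B (ENSG00000099860) on the plus strand of chromosome 19 from 2476122 to 2478259, and GADD45G (ENSG00000130222) on the plus strand of chromosome 9 from 89605013 to 89606555. In GENCODE version 29, 0 other genes overlap the span of any of the 3 members on either strand. The sequences just upstream of GADD45B and GADD45G are shown because the members are contrasted by what controls them. They were taken from RefSeq windows of GRCh38.p14 that run from 250 bases before to 50 bases after each gene start, and are printed up to the first base of the transcript. Capitals mark matches, on either strand, to the TATA box (TATAAA), the CCAAT box, the E-box (CACGTG), the AP-1 motif (TGANTCA), the kappa B motif and the p53 half-site. The window of GADD45A was not used here.
GADD45B, chr19:2475877-2476121, plus strand: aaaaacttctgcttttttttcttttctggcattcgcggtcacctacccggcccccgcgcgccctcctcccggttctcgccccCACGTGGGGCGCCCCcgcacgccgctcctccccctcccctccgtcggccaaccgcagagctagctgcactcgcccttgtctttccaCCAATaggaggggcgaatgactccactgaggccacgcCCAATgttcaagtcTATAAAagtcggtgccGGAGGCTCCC
GADD45G, chr9:89604762-89605011, plus strand: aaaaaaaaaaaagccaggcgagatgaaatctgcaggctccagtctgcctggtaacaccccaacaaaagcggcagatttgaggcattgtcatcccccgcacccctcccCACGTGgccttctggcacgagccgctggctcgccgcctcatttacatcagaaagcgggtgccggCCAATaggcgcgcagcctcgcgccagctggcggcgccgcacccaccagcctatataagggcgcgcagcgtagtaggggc

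Distances are counted from the RefSeq gene starts, 2476127 for GADD45B and 89605012 for GADD45G, which differ slightly from the GENCODE starts given above. Both windows held CACGTG, which was present in 7.26% of the 35116 promoter windows of the same length, and both held CCAAT, present in 34.6%. In GADD45B this E-box began 168 bases before the RefSeq start and in GADD45G 143 bases before it. The GADD45B window also held TATAAA, 31 bases before the start and present in 11.5% of windows. It held 2 matches to the kappa B motif, present in 11.3% of windows, at 163 and 15 bases before the start, the first of which shares 1 base with the E-box. Neither window matched the AP-1 motif (7.71% of windows) or the p53 half-site (6.63%), which says only that these letters were not in these windows.

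The overexpressed transcript, LOC101927668, had 231, 270 and 276 reads in LOC_OE against 1, 1 and 0 in Vector, which matches the labels. The libraries held between 15008842 and 18410231 reads on genes. LOC_OE replicate 1 stood apart from LOC_OE replicates 2 and 3, with Pearson correlations of log2(FPKM + 1) across genes of 0.967 and 0.962 against 0.982 between the other two. The values of the members and of some of the other genes named below are also given without it. Of 8 markers of intestinal epithelium, EPCAM, KRT8, KRT18 and CDX2 passed the filter on low FPKM, whereas CDH1 was listed at 0 in every library and KRT19, KRT20 and VIL1 had mean FPKM of at most 0.203. The summed FPKM of the 8 was 39.4 to 41.5 in Vector and 48.4 to 89.6 in LOC_OE. KRT18 alone had 67.5 FPKM in LOC_OE replicate 1, against 25.3 and 25.1 in LOC_OE replicates 2 and 3. Of 8 markers of immune, stromal and endothelial cells, 3 (CD3E, COL1A2 and DCN) were listed at 0 in every library. Their summed FPKM was 0.987 to 1.36 in Vector and 0.344 to 0.757 in LOC_OE. Most of it was CD68, the only one to pass the filter, with a mean of 1.04 FPKM in Vector and 0.423 FPKM in LOC_OE. The part of these markers in the results below was not tested. In bulk RNA, fewer cells that express a gene and less RNA of it per cell cannot be told apart.

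GADD45A was by far the most abundant member, with 78.6, 72.5 and 69.1 FPKM in the Vector libraries and 44.7, 71.3 and 62.3 FPKM in the LOC_OE libraries. The groups overlapped, since LOC_OE replicate 2 lay above Vector replicate 3, and LOC_OE replicate 1 was the lowest library. The mean ± SD of 3 libraries was 73.4 ± 4.83 FPKM in Vector and 59.4 ± 13.5 FPKM in LOC_OE. The fitted log2 fold change of LOC_OE over Vector on the log2(FPKM + 1) scale was −0.32 (standard error 0.17), and GADD45A was not called. It was −0.14 without LOC_OE replicate 1. Between 1482 and 3052 reads lay behind each value, a counting error of at most 2.60%, while the coefficient of variation was 6.58% in Vector and 22.7% in LOC_OE. In Vector cells GADD45A had a higher mean FPKM than 97.6% of the 16061 genes tested.

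GADD45B, also known as MYD118, was higher in each LOC_OE library than in any Vector library. It had 4.71, 4.28 and 5.28 FPKM in Vector and 8.82, 13.2 and 11.1 FPKM in LOC_OE. LOC_OE replicate 1 was again the lowest of its group. The mean rose from 4.76 ± 0.501 to 11.0 ± 2.17 FPKM (SD, n = 3 libraries each), a ratio of means of 2.32. The fitted log2 fold change was 1.05 (standard error 0.15) with all libraries and 1.19 without LOC_OE replicate 1. Of the genes tested, 99.2% had a lower fold change. The values rested on 170 to 451 reads, a counting error of at most 7.67%. In Vector cells the FPKM of GADD45B exceeded that of 50.2% of the tested genes, so it was near the middle of the range.

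GADD45G was close to the limit of detection in both groups. Vector replicates 1, 2 and 3 held 5, 1 and 8 of its reads, or 0.202, 0.0407 and 0.325 FPKM. In LOC_OE it had 1, 3 and 0 reads, or 0.0472, 0.142 and 0 FPKM. The 0 reads of LOC_OE replicate 3 allow a level of up to 0.154 FPKM, that of 3 reads in this library. Since 3 reads or fewer lay behind each LOC_OE value, no fold change is read from these values, and a difference in GADD45G was not detectable at this depth.

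**Figure D1:**
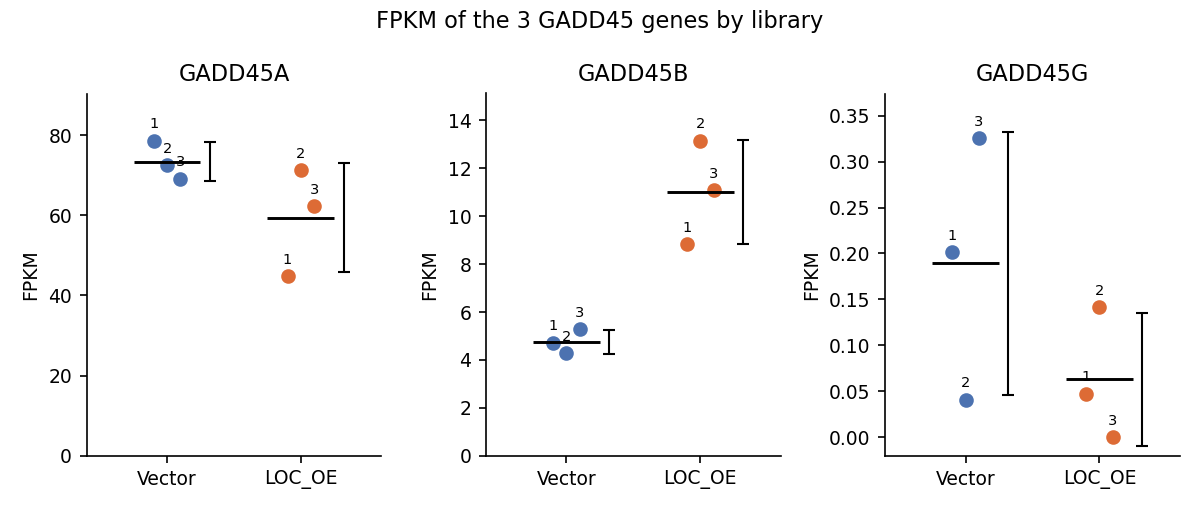
FPKM (vertical axes, each from about 0 with its own scale) of GADD45A, GADD45B and GADD45G in the 3 Vector (blue) and 3 LOC_OE (orange) libraries, numbered by replicate, with the group mean as a line and the SD as a bar. The groups overlap for GADD45A and GADD45G, and every LOC_OE value of GADD45B (8.82 to 13.2) lies above every Vector value (4.28 to 5.28).

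A gene counted as called when limma gave an adjusted p-value under 0.05 and the groups differed at least 1.5-fold. In the counts of gene lists below, only called genes are said to have risen or fallen. Of the 3 members, 2 passed the filter of 0.5 FPKM in at least 3 libraries, and 1 of these, GADD45B, was called, where 10.2% of all tested genes were called and 4.63% were called higher in LOC_OE. GADD45B was also the only member whose groups did not overlap, as 45.3% of all tested genes did not. Because the contrast was known when the members were chosen, nothing is read from these counts. GADD45B was not called without Vector replicate 2, where its log2 fold change was 0.99.

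The balance between GADD45A and GADD45B does not depend on the scaling of a library, because both are read from the same library. GADD45A exceeded GADD45B 16.7-, 16.9- and 13.1-fold in the Vector libraries and 5.07-, 5.42- and 5.62-fold in the LOC_OE libraries, in FPKM. The LOC_OE libraries were close to each other, replicate 1 included, and did not overlap with Vector. The log2 ratio of GADD45B to GADD45A (mean ± SD, n = 3 libraries each) was −3.95 ± 0.209 in Vector and −2.42 ± 0.0754 in LOC_OE, a difference of 1.53. With any 1 library left out this difference lay between 1.46 and 1.65. GADD45B made up 6.09% ± 0.845 of the summed FPKM of the family in Vector and 15.7% ± 0.690 in LOC_OE. The summed FPKM itself was 78.4 ± 4.61 in Vector and 70.5 ± 15.7 in LOC_OE, and it overlapped between the groups, from 74.7 to 83.5 and from 53.6 to 84.6. The merged exons of GADD45B cover its whole span of 2138 bases because some annotated transcripts retain introns. With the length of the longest coding transcript in its place, a choice made after the data were seen, GADD45A exceeded GADD45B 11.6- to 15.0-fold in Vector and 4.50- to 4.99-fold in LOC_OE.

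**Figure D2:**
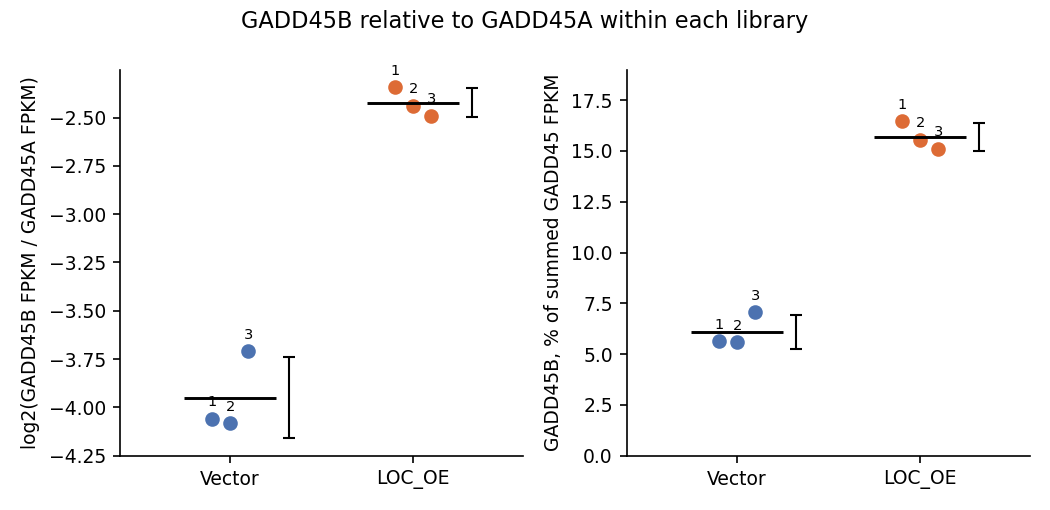
Left, the log2 ratio of GADD45B to GADD45A FPKM in each library; right, GADD45B as a percentage of the summed FPKM of the 3 members (axis from 0). Points are libraries numbered by replicate, lines are group means and bars are SDs. The LOC_OE libraries lie between −2.49 and −2.34 on the left, all above the Vector libraries at −4.08 to −3.71.

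The genes whose levels followed each member most closely over the 6 libraries were found by the root mean square difference of log2(FPKM + 1) from the Vector mean, among 13204 genes whose mean FPKM reached 1. For GADD45A these were CRYL1, SLC35E2A, GZF1, AC105219.3 and PRR36, with differences of 0.0589 to 0.0713. CRYL1, the closest, had 9.53, 9.40 and 9.02 FPKM in Vector and 4.98, 8.69 and 8.15 FPKM in LOC_OE, so the low value of LOC_OE replicate 1 was shared. For GADD45B they were UAP1, SDCCAG8, AKAP12, HNF4G and TCEA1, with differences of 0.0766 to 0.108. UAP1, an enzyme of UDP-N-acetylglucosamine synthesis, had 59.0, 57.4 and 60.0 FPKM in Vector and 97.7, 151 and 135 FPKM in LOC_OE.

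Among 24 transcriptional targets of p53, the group to which GADD45A belongs by its regulation, 23 were tested, and 16 fell and 0 rose in LOC_OE, where 5.58% of all tested genes were called lower. Their median log2 fold change was −0.77 beside a median of 0.019 over all tested genes. Of the 23, 0 had a log2 fold change above 0 with all libraries, and 20 had a limma adjusted p-value under 0.05. For SESN2, named here after its values were seen, this direction rested on LOC_OE replicate 1. It had 63.8, 63.3 and 59.7 FPKM in Vector and 29.2, 84.2 and 83.1 FPKM in LOC_OE. Its log2 fold change was −0.07, and 0.42 without that library, which is under 1.5-fold (limma adjusted p = 0.911 and 0.00268). The largest decreases were those of TP53INP1, an autophagy and stress gene, BTG2, an antiproliferative factor, and BBC3, the pro-apoptotic protein PUMA, with log2 fold changes of −2.25, −1.78 and −1.33 (limma adjusted p = 0.00799, 0.00242 and 0.0183). BTG2 had 34.3, 31.1 and 29.6 FPKM in Vector and 7.16, 9.23 and 9.18 FPKM in LOC_OE. The fold change of GADD45A was less negative than that of 21 of the 23 targets. The targets had a median of −0.79, −0.75 and −0.70 against the Vector mean in LOC_OE replicates 1, 2 and 3, whereas GADD45A had −0.70, −0.04 and −0.23. Thus in LOC_OE replicate 1 GADD45A lay near the median of the targets, and in replicates 2 and 3 it lay above it. Without LOC_OE replicate 1, TP53INP1, BTG2 and BBC3 had log2 fold changes of −1.88, −1.67 and −1.03, and 18 of the targets fell. The number was 9 without Vector replicate 2 and 10 without Vector replicate 3.

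Among 15 NF-κB target genes, the group with which GADD45B shares a regulator, 13 were tested. Of these, 8 fell and 1 rose, where 10.2% of all tested genes were called. Their median log2 fold change was −0.98. The largest decreases were those of CXCL8, the chemokine interleukin-8, BIRC3, an inhibitor of apoptosis, and TRAF1, a TNF receptor adaptor, with log2 fold changes of −2.11, −1.95 and −1.54 (limma adjusted p = 0.00268, 0.00698 and 0.00520). CXCL8 had 5.04, 3.95 and 5.06 FPKM in Vector and 0.110, 0.439 and 0.419 FPKM in LOC_OE. IER3, an early response gene that is also induced by other stress signals, was the target that rose, from 25.3 ± 2.09 to 54.7 ± 9.34 FPKM (SD, n = 3 libraries each), or 1.07 on the log2 scale (limma adjusted p = 0.00799). GADD45B had a higher fold change than 12 of the 13 targets, all but IER3. The counts were again 8 and 1 without LOC_OE replicate 1. CXCL8, BIRC3 and TRAF1 then had log2 fold changes of −1.99, −1.67 and −1.38, and IER3 had 1.21. The median of the targets was −0.90, −0.96 and −1.0 in LOC_OE replicates 1, 2 and 3, against 0.77, 1.3 and 1.07 for GADD45B.

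**Figure D3:**
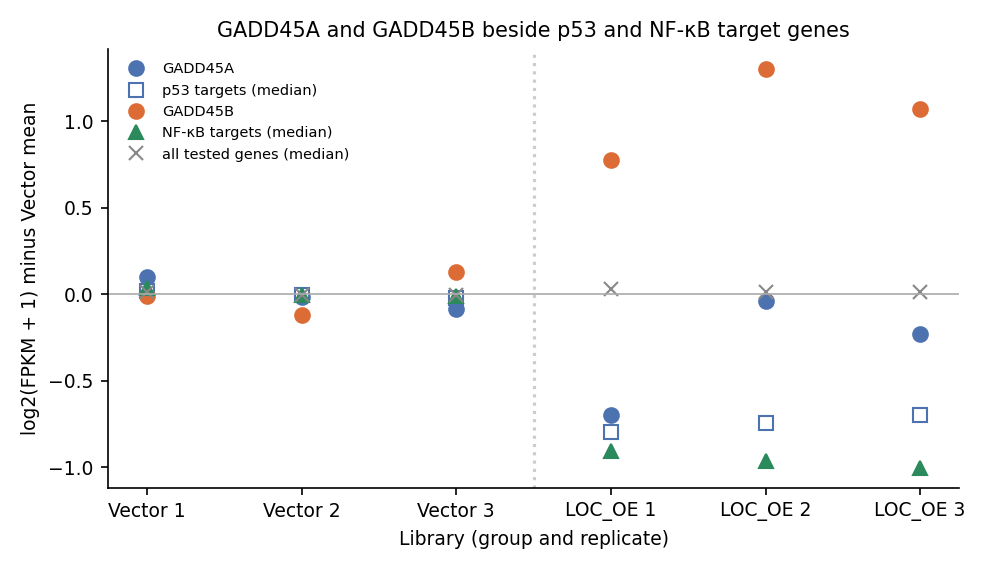
Difference of log2(FPKM + 1) from the Vector mean (vertical axis) in each of the 6 libraries for GADD45A, GADD45B, the medians of 23 p53 targets and 13 NF-κB targets, and the median of all tested genes. In LOC_OE both target groups lie between −1.0 and −0.70, GADD45B lies between 0.77 and 1.3, and GADD45A lies between −0.70 and −0.04.

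Of the 15 transcription factors that are known to act on GADD45 genes, 3 rose and 0 fell, where 10.2% of all tested genes were called. Their median log2 fold change was 0.0099. ATF4, the effector of amino acid and endoplasmic reticulum stress, had 86.5, 83.2 and 81.7 FPKM in Vector and 140, 212 and 208 FPKM in LOC_OE, a log2 fold change of 1.12 (limma adjusted p = 0.0107). EGR1, an immediate early factor, had 44.5, 36.2 and 39.5 FPKM in Vector and 109, 77.0 and 91.7 FPKM in LOC_OE, a log2 fold change of 1.18 (limma adjusted p = 0.00747). Of the NF-κB subunits, NFKB1 had a log2 fold change of 0.48 and RELA of −0.22, which were not called (limma adjusted p = 0.0862 and 0.213), and the values without LOC_OE replicate 1 were 0.30 and −0.33. NFKB2 and RELB, subunits that are themselves NF-κB targets and are counted among those that fell, are named here after their values were seen. NFKB2 had 46.8, 47.6 and 43.7 FPKM in Vector and 20.1, 21.0 and 20.9 FPKM in LOC_OE, a log2 fold change of −1.12 (limma adjusted p = 0.00257). RELB had −0.80 (limma adjusted p = 0.0250), which was not called without LOC_OE replicate 2 or without any one of the Vector libraries (limma adjusted p up to 0.105). STAT3, SMAD2, SMAD3 and SMAD4 had log2 fold changes of −0.26, 0.15, −0.56 and 0.01 and were not called either. FOXO3 had −0.63 (limma adjusted p = 0.0644). LOC_OE replicate 1 was the lowest library for SMAD3 and FOXO3, and without it their log2 fold changes were −0.30 and −0.40. Among 10 TGF-β targets, 8 were tested, and 1 fell, where 10.2% of all tested genes were called. This was BHLHE40, a circadian and hypoxia-responsive repressor, with a log2 fold change of −1.24 (limma adjusted p = 0.00237). The median of the 8 was 0.015. Without LOC_OE replicate 1, 1 rose and 2 fell.

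Among 15 immediate early and stress genes, 2 rose and 3 fell, where 10.2% of all tested genes were called. The 15 had a median log2 fold change of 0.13. Without LOC_OE replicate 1, 3 rose and 3 fell. FOS and EGR1 rose, FOS by 1.29 on the log2 scale (limma adjusted p = 0.00422). JUND, DUSP1 and KLF6 fell, with log2 fold changes of −0.99, −0.79 and −0.78 (limma adjusted p = 0.00835, 0.00775 and 0.020). PPP1R15A, also known as GADD34, had 84.4, 80.1 and 80.4 FPKM in Vector and 87.0, 160 and 167 FPKM in LOC_OE, which was not called with all libraries (log2 fold change 0.69, limma adjusted p = 0.0955). DDIT3, also known as GADD153 or CHOP, had 28.5, 31.6 and 28.8 FPKM in Vector and 21.4, 38.7 and 43.8 FPKM in LOC_OE and was not called (limma adjusted p = 0.689). When LOC_OE replicate 1 was left out, PPP1R15A had a log2 fold change of 0.99 and was called, and DDIT3 had 0.46, which is under 1.5-fold (limma adjusted p = 6.06e-04 and 0.00699). LOC_OE replicate 1 was the lowest LOC_OE library for GADD45A, GADD45B, ATF4, PPP1R15A and DDIT3 alike.

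Of 11 genes whose proteins bind GADD45 proteins, 1 rose and 1 fell, where 10.2% of all tested genes were called. NPM1, the nucleolar protein nucleophosmin, had 256, 230 and 242 FPKM in Vector and 522, 409 and 403 FPKM in LOC_OE, a log2 fold change of 0.86 (limma adjusted p = 0.0103). CDKN1A, the cyclin-dependent kinase inhibitor p21, which is also one of the 16 p53 targets that fell, had 115, 113 and 105 FPKM in Vector and 69.0, 57.7 and 56.7 FPKM in LOC_OE, a log2 fold change of −0.85 (limma adjusted p = 0.00698). The cell cycle partners PCNA, CDK1, CCNB1 and AURKA had log2 fold changes of 0.36, 0.21, 0.72 and 0.03, and 0 of these 4 were called (limma adjusted p from 0.237 to 0.958). LOC_OE replicate 1 was the highest library for each of the 4, with 272 FPKM of PCNA against 148 and 132 in LOC_OE replicates 2 and 3. Without it the log2 fold changes of PCNA, CDK1, CCNB1 and AURKA were 0.04, −0.03, 0.23 and −0.35, so that CDK1 and AURKA turned direction, and again none of the 4 was called (limma adjusted p = 0.735, 0.689, 0.0414 and 0.0222, each under 1.5-fold). Against the Vector mean, the 11 partners had a median of 0.78 in LOC_OE replicate 1 but of −0.05 and −0.04 in the other two. TDG and ERCC5, DNA repair proteins linked to GADD45A in DNA demethylation, had log2 fold changes of 0.51 and −0.27, and GADD45GIP1, a mitochondrial ribosome protein that binds GADD45 proteins, of 0.09. None of the 3 was called (limma adjusted p = 0.0589, 0.152 and 0.857), and without LOC_OE replicate 1 GADD45GIP1 had −0.26.

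In the p38 and JNK cascade, 14 of 16 genes were tested, and 2 fell and 0 rose, where 10.2% of all tested genes were called. The 2 that fell were DUSP10 and DUSP1, phosphatases that switch off p38 and JNK. DUSP10 had 2.74, 2.05 and 2.14 FPKM in Vector and 0.643, 0.706 and 0.934 FPKM in LOC_OE, a log2 fold change of −0.91 (limma adjusted p = 0.00877). MAP3K4, the kinase activated by GADD45 proteins, had a log2 fold change of 0.32, and MAP2K7, the JNK kinase that GADD45B inhibits, of −0.15. Neither was called (limma adjusted p = 0.0514 and 0.428), and without LOC_OE replicate 1 MAP2K7 had −0.28. The median of the 14 was 0.011, and 6 of them had a limma adjusted p-value under 0.05. These included MAPK8, MAPK9, MAPK12 and MAP2K4, named here after their values were seen. Their log2 fold changes of −0.55, 0.45, 0.47 and 0.42 were under 1.5-fold (limma adjusted p = 0.0116, 0.0246, 0.0281 and 0.0235). With 1 library left out, their adjusted p-values from limma reached 0.0633, 0.108, 0.114 and 0.102.

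**Figure D4:**
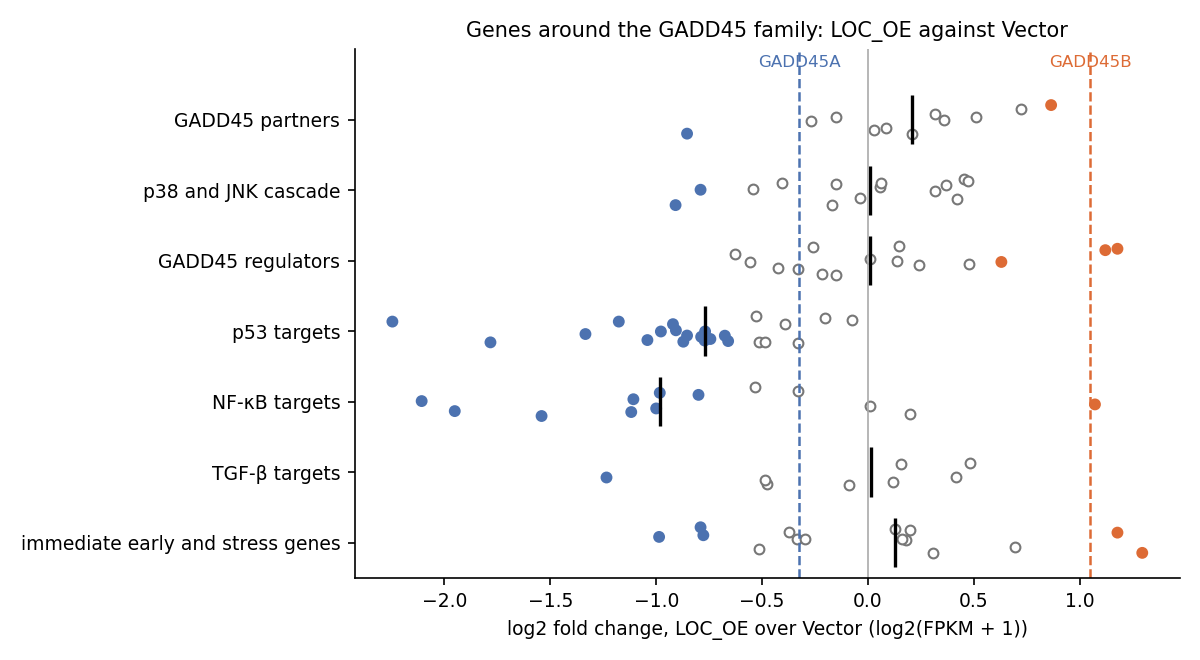
Log2 fold change of LOC_OE over Vector on the log2(FPKM + 1) scale (horizontal axis) for each tested gene of 7 gene groups (rows). Filled points are called genes, higher in orange and lower in blue, open points are not called, black ticks are group medians, and dashed lines mark GADD45A (−0.32) and GADD45B (1.05). The medians are −0.77 for p53 targets and −0.98 for NF-κB targets, and between 0.0099 and 0.21 for the other groups.

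Of the called genes named here, ATF4, BBC3 and KLF6 were not called without Vector replicate 1, 2 or 3, with adjusted p-values from limma of up to 0.0839. NPM1 was not called without Vector replicate 2 or 3 (up to 0.0642), and DUSP1, IER3 and JUND were not called without Vector replicate 2 (up to 0.0538). Rescaling each library to the same sum of FPKM shifted the median over all tested genes to −0.18 (log2) and the calls from 743 higher and 896 lower to 261 higher and 1787 lower. Under this scaling 2 immediate early and stress genes were higher and 6 lower, 2 regulators were higher and 2 lower, 21 p53 targets were lower, and 1 NF-κB target was higher and 9 lower. The log2 fold changes of CDK1, AURKA, GADD45GIP1, SMAD2, SMAD4, DDIT3 and KRT8, none of them called, turned from above to below 0 under it. So did those of some listed genes that are not named here. GADD45B was higher and GADD45A lower in LOC_OE under this scaling too, with log2 fold changes of 0.82 and −0.58.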

How the data were processed

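The authors sequenced paired ends of 150 bases on an Illumina NovaSeq from NEBNext Ultra libraries, and deposited 1 table of FPKM with 6 columns. HISAT2 2.0.4, StringTie 1.3.0 and hg38 are named in the submitters' processing notes. All 58735 gene identifiers matched GENCODE version 29 (GRCh38). Reads were recovered as whole multiples of 1 step per library for 100% of values (tolerance 0.01). The authors' library sizes equalled median-of-ratios sizes, so no further scaling was applied. Strand is not stated. Counting errors cover counting only.

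The all-gene fit used limma 3.58.1 (R 4.3.3) on log2(FPKM + 1) with a variance trend, over genes with at least 0.5 FPKM in at least 3 libraries, with Benjamini-Hochberg adjustment over all tested genes. Such fold changes understate low genes. The steps were tested on simulated data. The simulated libraries shared the same spread and held none set apart like LOC_OE replicate 1, so that test does not cover this feature of the data. The named genes are the members, partners and regulators, the 3 largest called increases and decreases of each other list, PPP1R15A, DDIT3, and the 5 genes nearest to each member. NFKB2, RELB, SESN2, MAPK8, MAPK9, MAPK12 and MAP2K4 were named after their values were seen. The members and lists were chosen with earlier results of these data known. SOD2 is listed under more than 1 identifier and was left out. Values of some regulators are not reported here. Alternatives are given at the end. Figures were drawn with matplotlib 3.10.9.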

Additional observations from a re-analysis of the deposited data

How the results depend on the processing

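The difference of the log2 ratio of GADD45B to GADD45A, the direction of GADD45A and GADD45B and the number of NF-κB targets called (7 to 10, 9 with all libraries) held under the alternatives run. Over all genes, 1639 were called, 2814 with limma voom on recovered reads, 363 at a fold change of at least 2, and 371 (without Vector replicate 2) to 1670 when 1 library was left out. It was 672 without Vector replicate 1 and 474 without Vector replicate 3. The log2 fold change of GADD45A was −0.58 with quantile normalization and −0.58 at the same sum of FPKM, and −0.47 to −0.14 with 1 library left out. That of GADD45B was 0.82 at the same sum of FPKM, and 0.92 to 1.19 with 1 library left out. The fitted value of GADD45G, from which no fold change is read at its depth, was −0.16 on log2(FPKM + 1), −0.25 to −0.075 with 1 library left out, and −1.29 with limma voom on its 18 reads. At a fold change of at least 2, 5 p53 targets were called, and 9 to 18 with 1 library left out. The cause of these shifts was not tested. Deviations of same-numbered libraries correlated at 0.11, −0.034 and 0.12, and those of differently numbered libraries at −0.13 to 0.058. Deviations within a group of 3 depend on one another, so these values cannot settle whether the replicate numbers pair the libraries. With the replicate number as a block 1435 genes were called, and the p53 and NF-κB target counts were 16 and 9.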
